A study of Mus musculus with 24 samples.

Results

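The genes described here are 43 genes of cell division: 22 that act in DNA replication or in the step into it (Mcm2 to E2f1), 20 that act in mitosis (Ccna2 to Tpx2), and Uhrf1, a reader of hemimethylated DNA that keeps methylation in place at the replication fork. They came from a list of gene names, by a rule that used no measured value, although earlier results of these data were known when the list was drawn up. Each gene was read from its brightest probe. All 43 had a probe among the 20031 gene symbols on the array, and 42 could be tested. The probe of Ccne2, which encodes a second E-type cyclin, was not well above background on any of the 24 arrays in either channel, so Ccne2 has no value below and the replication genes that could be tested were 21.

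Cells license DNA replication by loading the MCM helicase onto origins with Cdc6 and Cdt1, fire those origins with Cdc45, the GINS complex and Mcm10, and then copy DNA with the sliding clamp Pcna, its loader RFC and a supply of nucleotides from Rrm1, Rrm2, Tyms and Tk1. Many of these genes are transcribed before S phase by E2F factors, whereas mitotic genes such as Ccnb1, Plk1 and Aurka are transcribed later, through the MuvB complex with B-Myb and Foxm1. Naive T cells rest outside the cycle, and T helper cells divide many times while they differentiate in culture.

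On each array T helper cells supplied the Cy3-labelled RNA, and naive CD4+CD62L+CD25-CD44lo T cells from lymph nodes and spleens supplied the Cy5-labelled reference; the mice were female C57BL/6. The helper cells had been differentiated in vitro into Th1 cells (14 arrays) or Th2 cells (10 arrays), and the age of the mice is not given in the sources used here. They had received DMSO as vehicle, JQ1 at 50 or 500 nM, which blocks the BET bromodomain proteins, or flavopiridol at 1 or 10 µM, which inhibits P-TEFb (the kinase Cdk9 with cyclin T) and also other cyclin-dependent kinases. Unstimulated and reactivated cells of every treatment were hybridised to 1 array each, after 6 hr of exposure; for Th1 cells, DMSO and 500 nM JQ1 were also taken to 24 hr. How the cells on these arrays were reactivated is not given in the sources used here; in other experiments of the study mouse Th1 cells were restimulated with PMA and ionomycin or through CD3 and CD28. The Th2 DMSO arrays bear both times in their labels, so whether these controls match the 6 hr Th2 drug arrays in time is not known. Values are log2 ratios of the sample over the naive reference, or differences between such ratios; a gene was called where limma's adjusted p was under 0.05. No condition had a second array, so the cell type and state contexts stood in for replicates, and p-values measure the spread between contexts, not between repeats of a condition.

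Probes well above background made up 43.8% to 52% of the Cy3 channel on the DMSO and JQ1 arrays and 35.5% to 41.5% on the 8 flavopiridol arrays. The T cell genes Cd3e, Cd3g, Cd4 and Cd28 were above background on all 24 arrays. On the DMSO arrays Tbx21, which directs Th1 fate, had ratios of 5.41 to 6.35 in Th1 and -0.02 to 4.64 in Th2 cells, and Gata3, which directs Th2 fate, -0.52 to 0.55 in Th1 and 1.95 to 2.64 in Th2 cells. The cytokine genes Ifng, Il13 and Il4 were above background in the naive channel on 16, 3 and 2 of 24 arrays, so their ratios are mostly bounds and are not given. Markers of other cells were partly present in Cy3: of B cells Ms4a1 on 20 and Cd79a on 14 arrays, of myeloid cells Itgam and Csf1r on 24, Cd14 on 3 and Lyz2 on 0, of CD8 and natural killer cells Cd8b1 on 21, Cd8a on 13, Ncr1 on 1 and Klrb1c on 0, and of dendritic cells Flt3 on 15, Zbtb46 on 12 and Itgax on 9. With DMSO, Ms4a1 had ratios of 1.43 to 1.85 in Th1 and 3.84 to 4.03 in Th2 cells, and Itgam and Csf1r lay below the naive level in both. Cd79a lay at -0.11 to 0.18 in Th1 and 0.71 to 0.79 in Th2 cells, Cd8a at 0.86 to 1.87 and -0.11 to -0.02, and Flt3 at 0.51 to 1.45 and 0.71 to 1.01, with the naive channel of these genes above background on 5, 5 and 8 of 24 arrays. In the same order Cd8b1 lay at -1.37 to -0.82 and -1.85 to -1.26, and Itgax at -0.64 to -0.23 and -0.67 to 1.57. Zbtb46 lay at 0.05 to 0.91 and -0.03 to 0.08. The naive channel of these 3 was above background on 24, 24 and 19 arrays. Whether other cells took part in any result was not tested. In such bulk RNA, fewer dividing cells and less RNA per dividing cell cannot be told apart. No slide held a flavopiridol array together with its DMSO control, so slide and drug cannot be told apart there; the same holds for JQ1 in Th2 cells, whereas JQ1 in Th1 cells lay beside its control and each pair of unstimulated and reactivated arrays lay on 1 slide.

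Promoters of 7 genes are shown because these genes, 4 of mitosis and 3 of replication, were lower under flavopiridol and each hold at least 1 of the motifs searched; they were picked with those values known. They are RefSeq's windows in mouse build GRCm38.p6, from 250 bases before to 50 bases after the gene's start, written 5′ to 3′ on the gene's strand. Capitals mark 3 motifs on either strand: the CHR element TTTGAA, the E2F site as TTGGCGC, in a variant form as TTCCCGC and in a further variant form as TTCGCGC, and the CCAAT box. The first E2F form read on the other strand is GCGCCAA, which can overlap a CCAAT box, as it does in Ccnb1.
Plk1 (chr7:122159185-122159484, plus strand): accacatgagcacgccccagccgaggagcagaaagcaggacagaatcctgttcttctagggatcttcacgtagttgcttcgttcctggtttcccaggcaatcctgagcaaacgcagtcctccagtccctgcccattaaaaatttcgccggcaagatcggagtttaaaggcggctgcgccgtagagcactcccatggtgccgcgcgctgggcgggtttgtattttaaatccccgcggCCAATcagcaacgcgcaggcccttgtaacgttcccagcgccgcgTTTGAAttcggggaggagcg
Aurka (chr2:172370521-172370820, minus strand): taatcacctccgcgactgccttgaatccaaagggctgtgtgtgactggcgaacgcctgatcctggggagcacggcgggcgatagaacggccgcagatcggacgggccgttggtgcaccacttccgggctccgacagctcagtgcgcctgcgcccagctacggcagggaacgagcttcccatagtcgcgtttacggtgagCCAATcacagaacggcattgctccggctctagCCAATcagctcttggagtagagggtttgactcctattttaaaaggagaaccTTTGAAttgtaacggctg
Cdk1 (chr10:69352863-69353162, minus strand): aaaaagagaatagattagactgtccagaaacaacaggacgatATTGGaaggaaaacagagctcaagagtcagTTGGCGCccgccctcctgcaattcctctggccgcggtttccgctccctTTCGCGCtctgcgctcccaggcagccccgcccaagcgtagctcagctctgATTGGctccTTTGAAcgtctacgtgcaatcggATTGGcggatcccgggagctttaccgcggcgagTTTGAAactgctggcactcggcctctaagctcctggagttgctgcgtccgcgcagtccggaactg
Ccnb1 (chr13:100786437-100786736, minus strand): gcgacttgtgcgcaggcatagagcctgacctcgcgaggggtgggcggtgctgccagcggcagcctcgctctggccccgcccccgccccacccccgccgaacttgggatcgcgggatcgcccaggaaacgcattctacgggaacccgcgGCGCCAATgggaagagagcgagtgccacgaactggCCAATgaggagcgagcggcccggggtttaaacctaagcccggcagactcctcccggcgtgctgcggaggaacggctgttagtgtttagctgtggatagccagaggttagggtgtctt
Cdc6 (chr11:98907901-98908200, plus strand): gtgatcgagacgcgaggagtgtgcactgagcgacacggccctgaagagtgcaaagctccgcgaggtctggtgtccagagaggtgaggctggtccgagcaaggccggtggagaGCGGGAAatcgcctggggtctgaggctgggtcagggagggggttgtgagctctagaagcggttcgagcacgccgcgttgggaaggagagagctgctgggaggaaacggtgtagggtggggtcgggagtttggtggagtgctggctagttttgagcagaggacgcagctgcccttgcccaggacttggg
Cdt1 (chr8:122567765-122568064, plus strand): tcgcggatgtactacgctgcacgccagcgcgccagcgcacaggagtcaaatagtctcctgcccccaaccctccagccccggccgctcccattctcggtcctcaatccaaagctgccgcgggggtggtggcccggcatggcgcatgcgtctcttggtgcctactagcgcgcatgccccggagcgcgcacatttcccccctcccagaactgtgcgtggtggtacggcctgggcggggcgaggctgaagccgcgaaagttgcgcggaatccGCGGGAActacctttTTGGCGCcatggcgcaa
Mcm6 (chr1:128359656-128359955, minus strand): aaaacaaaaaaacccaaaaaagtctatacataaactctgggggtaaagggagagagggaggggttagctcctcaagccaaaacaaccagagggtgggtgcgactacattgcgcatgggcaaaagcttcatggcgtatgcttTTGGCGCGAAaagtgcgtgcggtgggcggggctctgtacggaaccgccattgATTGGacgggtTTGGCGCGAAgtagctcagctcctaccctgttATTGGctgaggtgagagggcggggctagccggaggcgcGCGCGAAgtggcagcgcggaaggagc

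A promoter was at hand for 34 of the 43 genes. CHR letters stood in 10 of 15 mitosis promoters (66.7%) and in 2 of 18 replication promoters (11.1%), against 17.9% of all 32851 promoters in the table. E2F letters stood in 9 of 18 replication promoters (50%) and 3 of 15 mitosis promoters (20%), against 8.07% of all. CCAAT boxes were in 13 of 15 mitosis (86.7%) and 11 of 18 replication promoters (61.1%), against 37.4% of all. CHR and CCAAT letters stood together in 10 of 15 mitosis (66.7%) and 2 of 18 replication promoters (11.1%), against 6.95% of all. A match describes letters in a window and does not show a bound factor. Cdk1, the kinase that drives entry into mitosis, held 2 CHR, 2 E2F and 3 CCAAT matches, and Mcm6, a subunit of the MCM helicase, held 5 E2F and 2 CCAAT matches. In Mcm6 some E2F matches overlap, since TTGGCGCGAA holds TTGGCGC and, on the other strand, TTCGCGC. Its 5 matches are therefore not 5 separate sites. Ccnb1, the B-type cyclin that activates Cdk1, held no CHR letters in this window, which says only that they are not in these bases.

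Every member that could be tested was higher in T helper cells than in naive cells. Over the 3 arrays of unstimulated cells with DMSO, the median log2 ratio was 2.47 for the 21 replication genes and 4.64 for the 20 mitosis genes, against 0.08 for all genes tested. Among the replication genes, Rrm2, the regulated subunit of ribonucleotide reductase, had ratios of 5.70 in Th1 cells at 6 hr, 5.93 in Th1 cells at 24 hr and 5.60 in Th2 cells, a mean of 5.75 (SE 0.12, adjusted p = 2.63e-05). Mcm10 stood at 4.09 (SE 0.11) and Rrm1, the other reductase subunit, at 3.84 (SE 0.11). The lowest was Tyms, thymidylate synthase, at 0.72 (SE 0.11, adjusted p = 0.0042). Tyms alone among the members did not stay called under every setting.

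Among the mitosis genes, Birc5 (survivin, of the chromosomal passenger complex) had the highest ratios, 6.35, 6.37 and 6.56 on the same 3 arrays. Mki67, the proliferation antigen Ki-67, had a mean of 6.33 (SE 0.12) and Cenpe, a kinetochore motor, of 5.72 (SE 0.11). The lowest gene measured in both channels was Cenpa, the histone H3 variant of centromeres, at 3.14 (SE 0.12). Naive RNA was not well above background for Cdc6, Aurkb and Bub1, so these genes have bounds: at least 16.5-fold higher for Cdc6, 2.87-fold for Aurkb, the passenger complex kinase, and 35.8-fold for Bub1, a kinase of the spindle checkpoint.

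All 21 replication and all 20 mitosis genes passed the test, as did Uhrf1 at 5.41 (SE 0.17), where 31.1% of all 11776 genes tested were called higher. Mcm5 at 2.47, Pcna at 2.25, Ccne1 (cyclin E1) at 2.11, E2f1 at 3.35, Ccnb1 at 5.09, Cdk1 at 4.75, Plk1 at 3.88 and Top2a (topoisomerase II alpha, which untangles sister chromatids) at 5.15 lay between these ends. The test sets the ratio against 0, so it leaves out the spread of the naive cells, and with no dye swap a dye effect on a probe cannot be told apart from a difference between the cells.

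**Figure D1:**
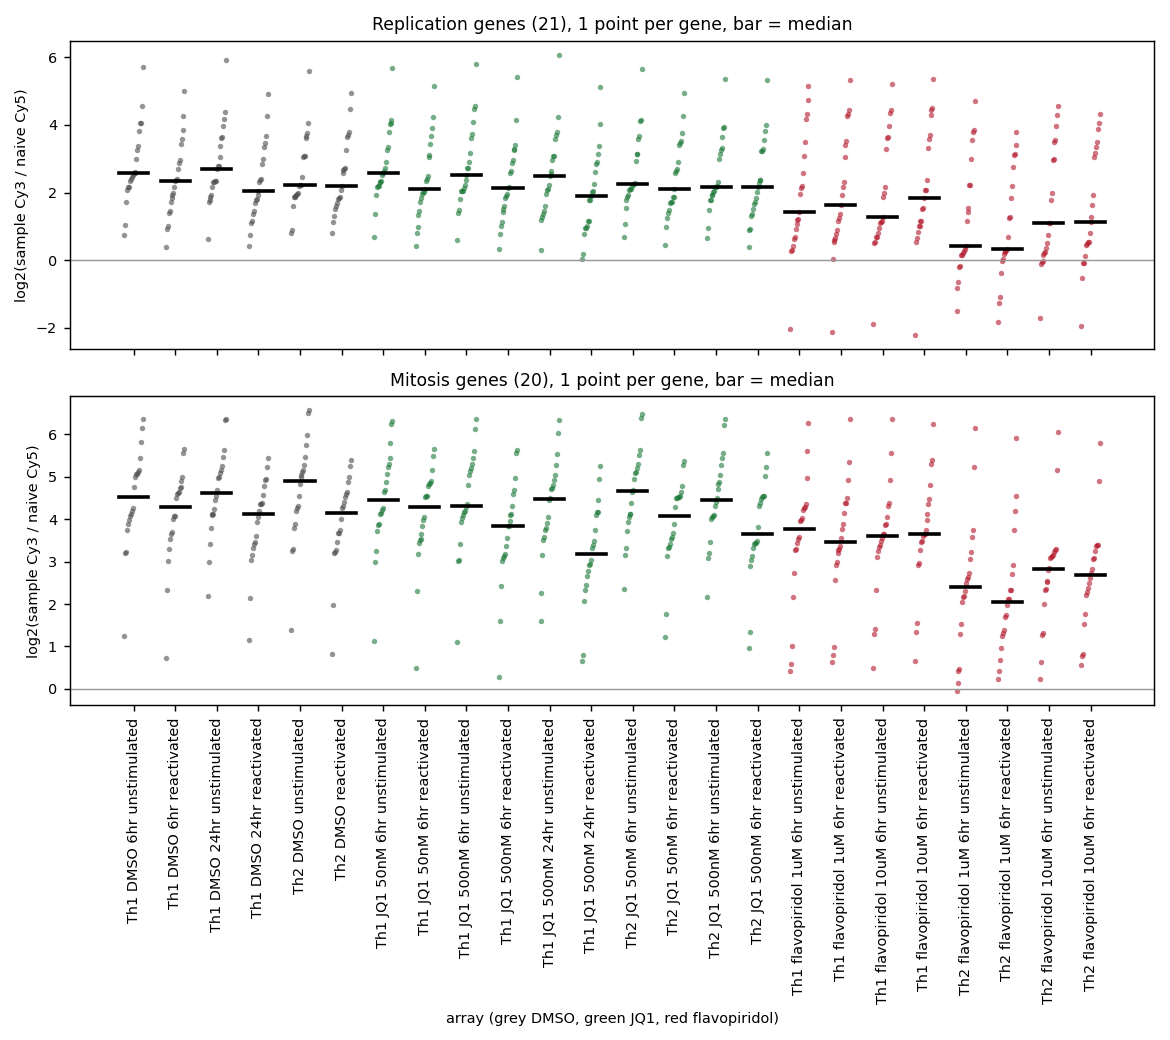
Log2 ratio to the naive reference (vertical axis) of 21 replication genes (upper panel) and 20 mitosis genes (lower panel) on each of the 24 arrays (horizontal axis); a point is a gene, a bar the median of the array, grey DMSO, green JQ1 and red flavopiridol. The medians of the 3 unstimulated DMSO arrays run from 2.22 to 2.69 for replication and from 4.51 to 4.91 for mitosis genes.

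Between Th1 and Th2 cells with DMSO limma called no member. The largest difference was for Ccna2, cyclin A2, with a lower estimate in Th1 cells: 5.12 and 5.46 in unstimulated Th1 cells against 5.97 in Th2 cells, and 4.61 and 4.56 against 4.87 after reactivation (difference -0.49, SE 0.16, adjusted p = 0.172). Ccna2 was the only member with an unadjusted p under 0.05. Of all 12543 genes tested 2.65% were called in either direction, and 2422 had an unadjusted p under 0.05.

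In the 3 pairs of DMSO arrays, reactivation lowered 14 of 20 mitosis genes and 7 of 21 replication genes and raised none, where 29% of all genes tested were called lower and 21.9% higher. The replication count lies near the share of all genes, and the groups were not tested against each other. The median difference was -0.64 for mitosis and -0.29 for replication genes, against -0.05 for all genes. With Uhrf1 the members called lower were 22, but 13 without either Th1 array at 24 hr, 14 with the scanner's own log ratios and 11 after a shift to the spike-in RNAs. Of all 12543 genes, 3385 were called lower with the scanner's ratios and 2285 after the shift. The 10 genes that stayed called under every setting were Birc5, Bub1, Ccna2, Cdt1, Cenpa, Cenpe, Mcm7, Mki67, Rrm2 and Uhrf1.

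Among the mitosis genes Birc5 fell in each pair, from 6.35 to 5.56 in Th1 cells at 6 hr, from 6.37 to 5.44 at 24 hr and from 6.56 to 5.24 in Th2 cells (difference -1.01, SE 0.15, adjusted p = 0.00218). Cenpa fell from 3.21 to 2.33, from 2.98 to 2.13 and from 3.24 to 1.97 (-1.0, SE 0.14, adjusted p = 0.00188). For both genes the unstimulated and reactivated arrays did not overlap, but they were named for their large estimates. How many of all genes had no overlap was not counted. Kif11, the motor that separates spindle poles, came next at -0.95 (SE 0.18, adjusted p = 0.00577), and Mki67 fell by 0.92 (SE 0.17, adjusted p = 0.00476), Top2a by 0.64 (SE 0.14, adjusted p = 0.01) and Plk1, a mitotic kinase, by 0.51 (SE 0.15, adjusted p = 0.0305). The 6 that were not called were Bub1b, Aurka, Cdc20, Ccnb1, Foxm1 and Cdk1. Cdk1 differed by 0.02 with a 95% interval of -0.32 to 0.36, and Ccnb1 by -0.32 with an interval of -0.67 to 0.03.

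Among the replication genes the licensing factor Cdt1 fell from 2.16 to 1.02 in Th1 cells at 6 hr, from 1.73 to 0.75 at 24 hr and from 1.96 to 1.14 in Th2 cells (-0.98, SE 0.13, adjusted p = 0.00148). Every reactivated array lay below every unstimulated one, but Cdt1 was named for its large estimate, and how often this held among all genes was not counted. Mcm7, of the MCM helicase, fell by 0.87 (SE 0.15, adjusted p = 0.00356) and Rrm2 by 0.80 (SE 0.13, adjusted p = 0.00363). Pcna, Rfc4 (a subunit of the clamp loader), E2f1 and Tk1 (thymidine kinase) fell by 0.64, 0.60, 0.54 and 0.46. Other helicase subunits did not pass the test: Mcm3 differed by -0.03 (interval -0.47 to 0.42) and Mcm5 by -0.05 (-0.49 to 0.39). Ccne1 differed by -0.29 (-0.64 to 0.05), and Mcm10 was the only replication gene with a positive estimate, 0.24, not called.

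The replication median by pair was -0.29 in Th1 cells at 6 hr, -0.63 at 24 hr and -0.02 in Th2 cells, and the mitosis median was -0.42, -0.69 and -0.71. In Th2 cells 8 of 21 replication genes had a positive difference, and 0 of 20 mitosis genes did. Cdc6 shows the split between pairs: it went from 4.55 to 3.44 and from 4.38 to 3.66 in Th1 cells and from 3.66 to 3.80 in Th2 cells (-0.56, SE 0.24, not called). Whether the pairs differ was not tested, since a cell type and time had 1 pair each.

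**Figure D2:**
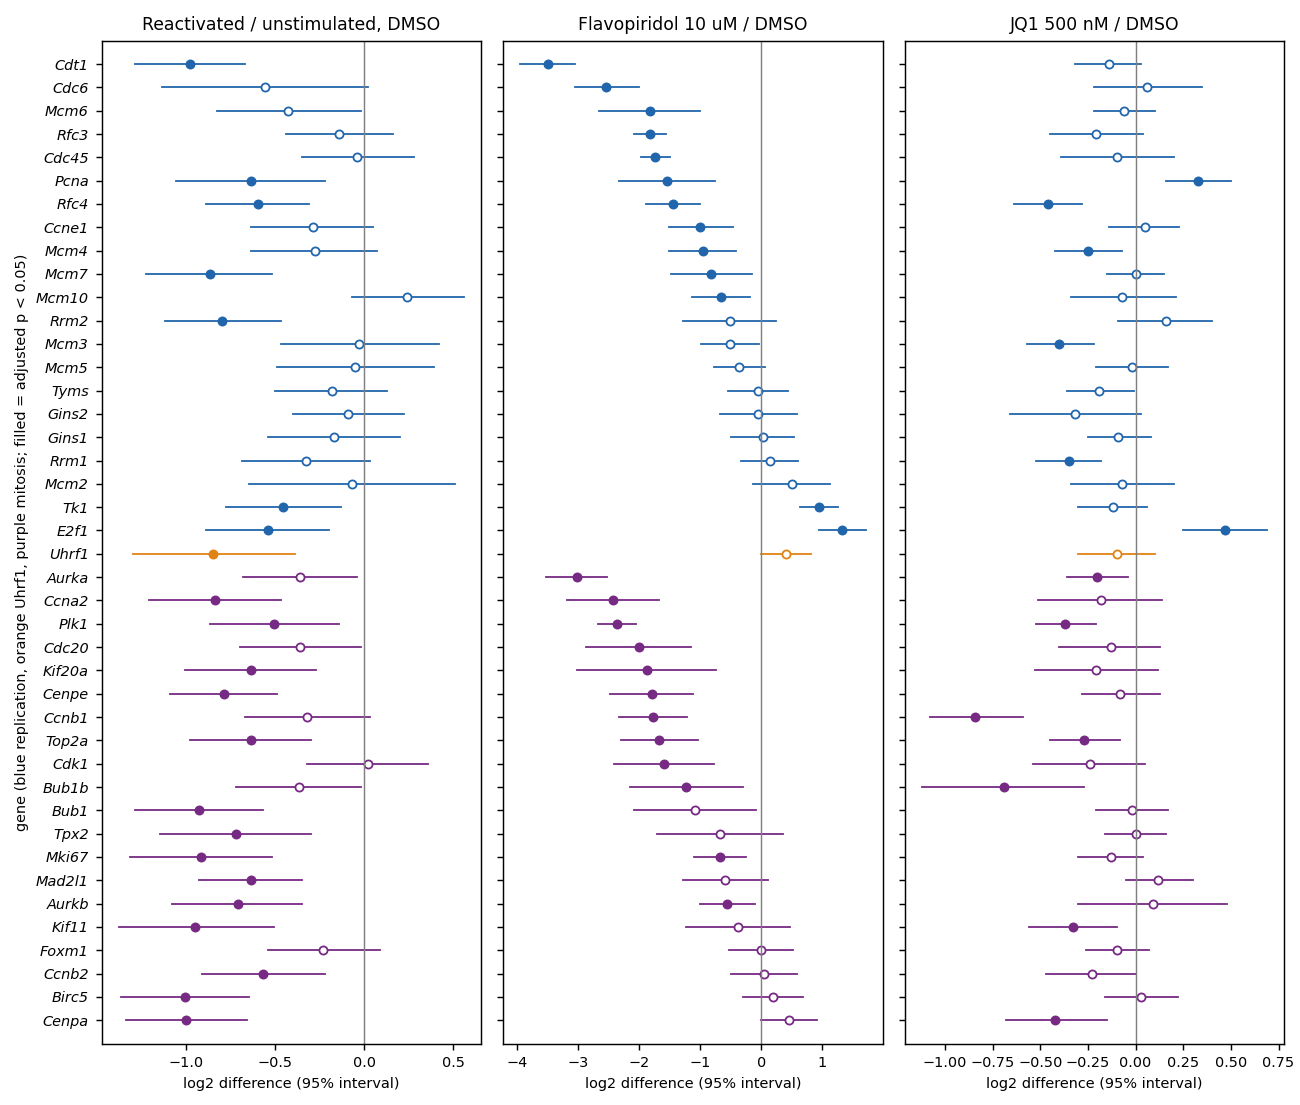
Difference in log2 ratio (horizontal axis) with its 95% interval for each member (vertical axis) after reactivation, under 10 µM flavopiridol and under 500 nM JQ1; filled points are called at an adjusted p under 0.05. Reactivation has 22 filled points, all below 0; flavopiridol has 23 below and 2 above 0 (E2f1 and Tk1, which turn to -0.03 and -0.31 with median centring in place of loess, while Bub1b and Mcm10 turn positive in the scanner's log ratios); JQ1 has 11 below and 2 above 0 (Pcna turns to -0.11 after a spike-in shift, and Aurka and Kif11 to 0.07 and 0.04 in the scanner's log ratios).

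Under 10 µM flavopiridol, 11 of 21 replication genes fell and 2 rose, and 12 of 20 mitosis genes fell and none rose, where 33.5% of all 12462 genes tested were called lower and 15.4% higher. The median difference was -0.66 for replication and -1.15 for mitosis genes, against -0.22 for all genes. Values were set relative to the centre of each array, and with other scalings the centre moved. The median of all genes was -1.05 with median centring and -0.93 after a spike-in shift, and the mitosis median was then -1.87 and -1.86. With these scalings 35 and 28 members were called lower and 0 higher. Of all 12462 genes, 8309 and 7149 were then called lower, and 284 and 273 higher. In the scanner's own log ratios the mitosis median, -0.27, and the replication median, -0.26, lay near that of all genes, -0.24, and 13 members were called lower and 9 higher (5 and 3 of the mitosis genes). There 3712 of all genes were called lower and 2415 higher. On Th1 arrays alone, an analysis added after the data were seen, 15 members fell and 3 rose, beside 2935 and 1330 of all genes.

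Of the replication genes, the origin licensing factors Cdt1 and Cdc6 fell most. Cdt1 had ratios of 0.75 to 2.16 (median 1.43) on the 6 DMSO arrays and of -2.22 to -1.51 (median -1.91) on the 8 flavopiridol arrays. All 8 flavopiridol arrays lay below all DMSO arrays and below the naive level of 0. At 10 µM against the matched DMSO arrays Cdt1 fell by 3.50 (SE 0.19, adjusted p = 1.4e-05). Cdc6 had ratios of 3.44 to 4.55 (median 3.73) with DMSO and of 0.26 to 1.83 (median 0.82) with flavopiridol, again with no overlap and over a naive channel at background, and fell by 2.54 (SE 0.23, adjusted p = 7.19e-05). Both genes were named for their large estimates, and how many of all genes had no overlap was not counted. The promoters of both genes are among those printed above.

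The helicase subunits are given one by one, and differences between them were not tested. Mcm6 had ratios of 2.00 to 2.78 (median 2.21) with DMSO and of -1.10 to 1.16 (median 0.34) with flavopiridol. Its 4 values below 0, of 8 flavopiridol arrays, were all of Th2 cells: -0.82 and -1.10 at 1 µM, and -0.01 and -0.07, about the naive level, at 10 µM. It fell by 1.83 at 10 µM (SE 0.36, adjusted p = 0.00334), Mcm4 by 0.96 (SE 0.24, adjusted p = 0.0101) and Mcm7 by 0.82 (SE 0.29, adjusted p = 0.0457). Mcm5 and Mcm3 were not called, at -0.36 (95% interval -0.78 to 0.06) and -0.51 (-0.99 to -0.03), and Mcm2 stood at 0.50 (-0.14 to 1.13). Mcm10 fell by 0.66 (SE 0.21, adjusted p = 0.0272) but stood at 0.66 in the scanner's log ratios, and its reference channel varied between arrays (SD 0.48). E2F letters stood in the promoters of the called Mcm6 and Mcm7 and of the not called Mcm3 and Mcm5 alike.

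Past the helicase, the clamp loader subunits Rfc3 and Rfc4 and the helicase cofactor Cdc45 fell by 1.82 (SE 0.11), 1.44 (SE 0.20) and 1.74 (SE 0.10), with adjusted p of 1.69e-05, 0.000473 and 1.41e-05; Rfc3 was above background on 3 of the 4 arrays at 10 µM, so its fall is in part a bound. Pcna had ratios of 1.44 to 2.57 (median 1.80) with DMSO, of 1.12 to 1.41 on the Th1 flavopiridol arrays and of -1.25 to -0.10 on the Th2 flavopiridol arrays. It fell by 1.55 (SE 0.35, adjusted p = 0.00588). Ccne1 fell by 1.00 (SE 0.23, adjusted p = 0.00699). Most genes of nucleotide supply and of GINS were not called: Rrm1 at 0.14, Tyms at -0.06, Rrm2 at -0.52, Gins2 at -0.05 and Gins1, the smallest of the group, at 0.02 (interval -0.50 to 0.54).

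E2f1 and Tk1 went the other way from most replication genes. E2f1, a transcription factor that drives S phase genes, had ratios of 2.73 to 3.63 (median 2.95) on the DMSO arrays and of 3.40 to 4.71 (median 4.39) on the flavopiridol arrays; the ranges overlap through the Th2 reactivated array at 1 µM (3.40). It rose by 1.33 at 10 µM (SE 0.17, adjusted p = 0.000338, higher in 4 of 4 contexts), but stood at -0.03 with median centring and at 0.63 after a spike-in shift. Tk1 had ratios of 2.38 to 3.07 (median 2.85) with DMSO and of 3.48 to 4.06 (median 3.72) with flavopiridol, with no overlap, and rose by 0.95 (SE 0.14, adjusted p = 0.000667), but stood at -0.31 with median centring and at 0.24 after a spike-in shift. How many of all genes had no overlap, as Tk1 did, was not counted. The reference channel of Tk1 varied between arrays (SD 0.74, against 0.22 for E2f1), and in the Cy3 channel alone the differences were 1.53 for E2f1 and 0.97 for Tk1.

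Of the mitosis genes Aurka, a spindle pole kinase, fell most. Its ratios were 3.74 to 4.31 (median 4.16) with DMSO and -0.05 to 1.55 (median 0.72) with flavopiridol, with 1 of the 8 flavopiridol arrays (-0.05) about at the naive level. At 10 µM Aurka fell by 3.03 (SE 0.22, adjusted p = 2.79e-05). Ccna2 went from 4.56 to 5.97 (median 5.0) to 2.28 to 3.58 (median 2.91) and fell by 2.43 (SE 0.33, adjusted p = 0.000461). Plk1 had ratios of 3.27 to 4.13 (median 3.64) with DMSO and of 0.42 to 1.41 (median 0.93) with flavopiridol, and fell by 2.37 (SE 0.14, adjusted p = 1.41e-05). None of these 3 genes had overlapping groups, but they were named for their large estimates. How many of all genes had no overlap was not counted. In the 4 contexts the difference of Plk1 ran from -2.52 to -2.18, while its reference channel varied over the 24 arrays with an SD of 0.46.

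Ccnb1, Top2a and Cdk1 fell by 1.78 (SE 0.24), 1.67 (SE 0.28) and 1.60 (SE 0.36), with adjusted p of 0.000486, 0.0013 and 0.00637. Cdc20, an activator of the anaphase-promoting complex, Kif20a, a motor of cytokinesis, and Cenpe fell by 2.01, 1.88 and 1.80. Mki67 fell by 0.68 (SE 0.19, adjusted p = 0.0166): its ratios were 5.22 to 6.51 with DMSO and 4.54 to 5.61 with flavopiridol, so the groups overlapped. Bub1b, of the spindle checkpoint, fell by 1.23 (adjusted p = 0.0349) but stood at 0.33 in the scanner's log ratios.

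The other 8 mitosis genes were not called at 10 µM. Birc5 kept ratios of 5.79 to 6.37 with flavopiridol, within its range of 5.24 to 6.56 with DMSO, and differed by 0.19 (interval -0.30 to 0.68). Cenpa stood at 0.46 (0.00 to 0.92) and Foxm1, a transcription factor of mitotic genes and the member with the smallest estimate, at -0.01 (-0.53 to 0.52). Ccnb2, the second B-type cyclin, stood at 0.04 (-0.50 to 0.59), while Ccnb1 fell. The reference channel of Ccnb2 varied between arrays (SD 0.63, against 0.16 for Ccnb1), and the 2 genes were not tested against each other. Of the 10 mitosis genes with CHR letters 7 fell (Plk1, Aurka, Cdk1, Cdc20, Bub1b, Top2a and Mki67) and 3 were not called (Ccnb2, Cenpa and Kif11), beside 12 of all 20 mitosis genes; of the 5 with a promoter and no CHR letters 2 fell (Ccnb1 and Cenpe). No test was made of this, and nothing is read from it.

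**Figure D3:**
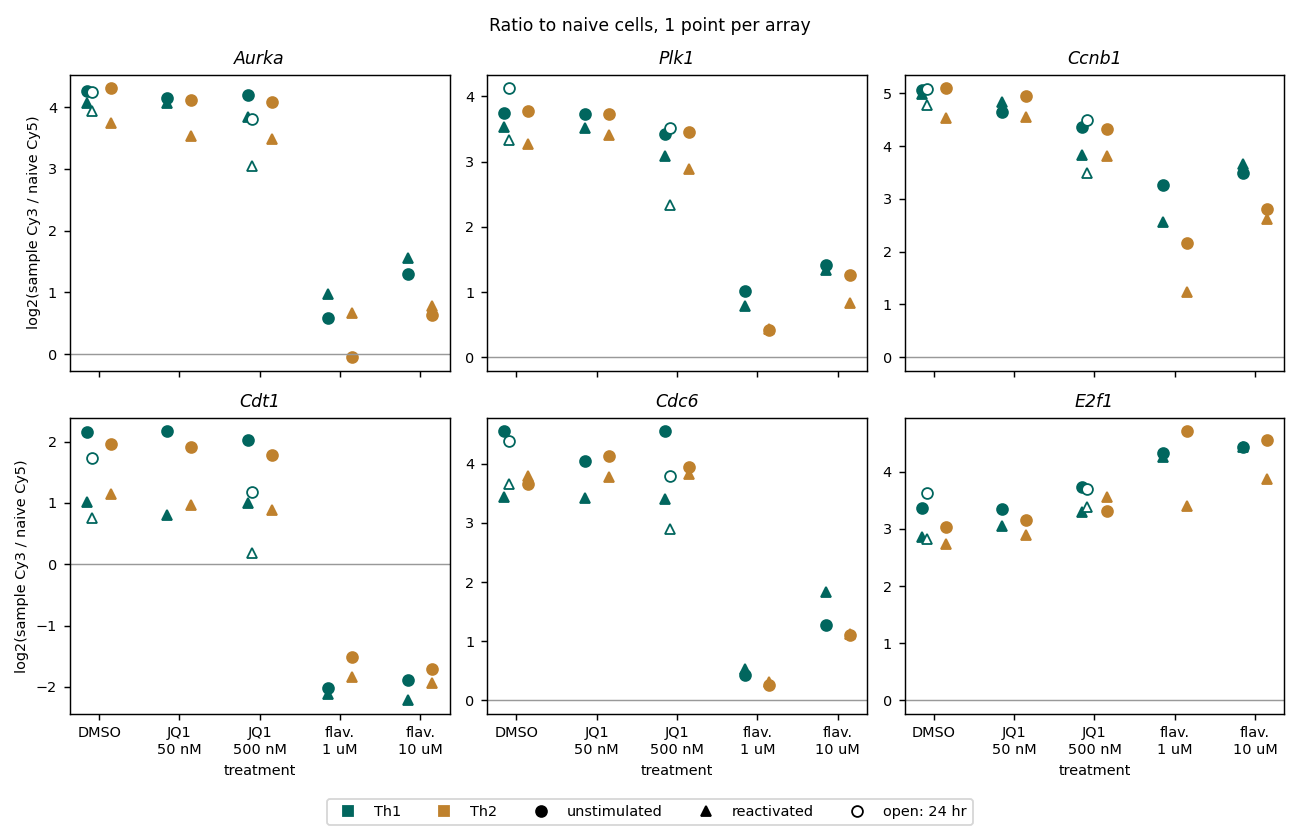
Log2 ratio to the naive reference (vertical axis) of Aurka, Plk1, Ccnb1, Cdt1, Cdc6 and E2f1 on each array, grouped by treatment (horizontal axis); teal Th1, ochre Th2, circles unstimulated, triangles reactivated, open symbols 24 hr, and the line at 0 is the naive level. Cdt1 lies below 0 on 8 of 8 flavopiridol arrays and E2f1 reaches 4.71 there, but E2f1's rise turns to -0.03 at 10 µM with median centring in place of loess.

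Differences at 10 µM were less negative in Th1 than in Th2 cells for 20 of 20 mitosis genes and 16 of 21 replication genes, and less negative after reactivation for 20 and 18 of them. The median gap between cell types was 0.98 for mitosis and 0.42 for replication genes, against -0.02 for all genes. Between states it was 0.61 and 0.31, against 0.06. The genes were read from the same arrays, so such counts are not repeats. The second pattern rests on single DMSO arrays: without the reactivated Th1 array at 6 hr the replication median of the difference between states turned from 0.31 to -0.21 and the mitosis median from 0.61 to 0.24, and without the unstimulated Th2 array they were 0.08 and 0.08. The mitosis median at 10 µM was -0.97 in unstimulated Th1, -2.18 in unstimulated Th2, -0.26 in reactivated Th1 and -1.41 in reactivated Th2 cells. The replication median was -0.63, -1.32, -0.26 and -1.03 in the same order. Kif20a differed by -1.15 and -0.52 in Th1 cells and by -3.28 and -2.56 in Th2 cells. The test of the cell type difference called no member: Kif20a had the smallest p (difference of differences 2.09, SE 0.33, adjusted p = 0.174), 8 mitosis and 6 replication genes had an unadjusted p under 0.05, and 0.016% of all genes were called, with 1611 at an unadjusted p under 0.05. The Th1 and Th2 flavopiridol arrays lay on different slides, and cell type and slide cannot be told apart there. The test of the difference between reactivated and unstimulated cells called 1 of 42 members, where 8.88% of all genes were called higher. This was Cenpa, at 0.17 and -0.14 in unstimulated Th1 and Th2 cells and at 0.95 and 0.86 in reactivated ones (difference of differences 0.89, SE 0.24, adjusted p = 0.0477); it was not called with median centring (1.03), after a spike-in shift (0.77) or in the scanner's log ratios (0.84).

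At 1 µM, 14 of 21 replication genes fell and 2 rose, and 14 of 20 mitosis genes fell and none rose, where 35.4% of all genes were called lower and 16.2% higher. The medians were -0.92 and -1.40, against -0.24 for all genes. In the scanner's log ratios 18 members were called lower and 7 higher, with medians of -0.43 and -0.77, where 4053 of all 12462 genes were lower and 2583 higher. On Th1 arrays alone, added after the data were seen, 16 members were lower and 3 higher, with medians of -0.30 and -0.54. Of all genes 3181 were then lower and 1419 higher. By context the mitosis median was -0.82 in unstimulated Th1, -2.38 in unstimulated Th2, -0.37 in reactivated Th1 and -2.12 in reactivated Th2 cells, and the replication median -0.56, -1.74, -0.07 and -1.48. Aurka, Plk1 and Ccnb1 fell by 3.55, 2.91 and 2.61, Cdk1 by 2.37, Top2a by 1.34 and Mki67 by 0.74. Cdc6 (above background on 3 of 4 arrays), Cdt1 and Mcm6 fell by 3.48, 3.44 and 2.19, Ccne1 by 1.73, Pcna by 1.66, Rrm2 by 0.95 and Mcm5 by 0.61. E2f1 rose by 1.17 and Tk1 by 0.79, but with median centring they stood at -0.01 and -0.30. Foxm1 fell by 0.84 (adjusted p = 0.0153) but stood at 0.21 in the scanner's log ratios. The smallest estimates were -0.03 for Tyms and 0.01 for Kif11. Both doses were set against the same DMSO arrays, and the difference between the doses was not tested.

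**Figure D4:**
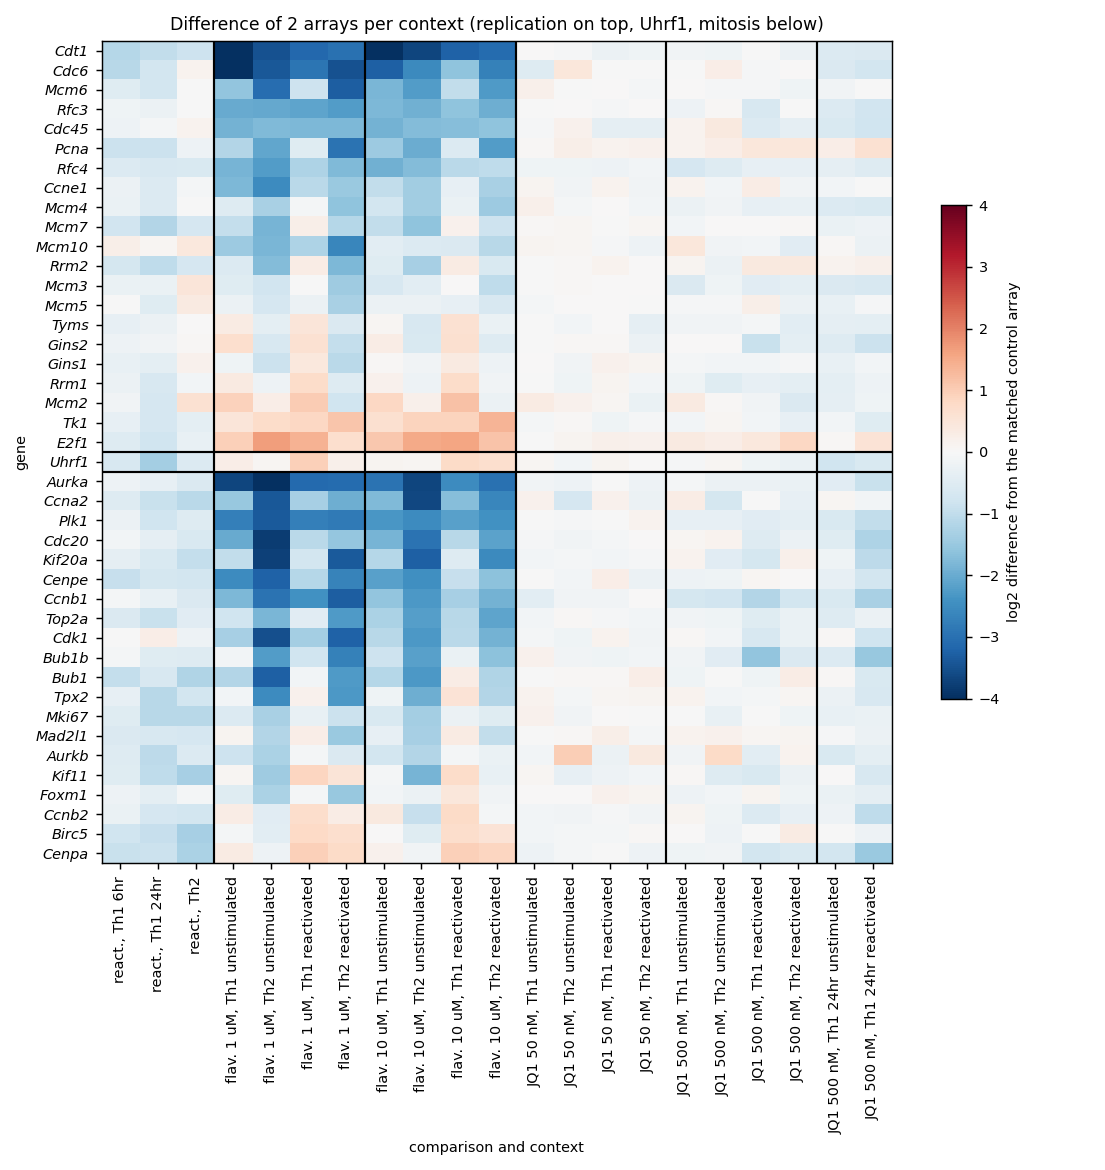
Difference in log2 ratio (colour, ending at -4 and 4, with values past an end drawn in its colour) of each member (vertical axis) in each context and comparison (horizontal axis). Cdt1 and Aurka are blue under both flavopiridol doses in all contexts, down to -4.18 and -4.36, and E2f1 is red there; E2f1's rise at 10 µM turns to -0.03 with median centring in place of loess.

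Under JQ1 at 500 nM, in the 4 contexts at 6 hr, 4 of 21 replication genes fell and 2 rose, and 7 of 20 mitosis genes fell and none rose, where 29.9% of all 12923 genes tested were called lower and 17.7% higher. JQ1 and flavopiridol were not tested against each other. The medians were -0.09 for replication and -0.19 for mitosis genes, against -0.07 for all. In the scanner's log ratios they were 0.01 and 0.00, with 5 members called lower and 3 higher, beside 3351 and 2704 of all genes. With median centring 29 members were called lower and 0 higher, beside 5823 and 736 of all genes, and the median of all genes was -0.28. In Th2 cells the JQ1 and DMSO arrays lay on different slides. Of the 13 called members, 7 were left without the reactivated Th1 DMSO array at 6 hr, and 2 on Th1 arrays alone, added after the data were seen, where JQ1 and DMSO lay on 1 slide: Ccnb1 at -0.93 and Mcm3 at -0.51. The same pair alone was called under every setting.

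Ccnb1 fell most. Unstimulated Th1 cells at 6 hr had a ratio of 5.06 with DMSO, 4.64 with 50 nM and 4.36 with 500 nM JQ1, and reactivated ones 4.99, 4.84 and 3.83. In Th2 cells the ratios were 5.10, 4.95 and 4.32 unstimulated and 4.53, 4.55 and 3.81 reactivated. The 500 nM array was the lowest in all 4 contexts. The difference at 500 nM from DMSO was -0.84 (SE 0.11, adjusted p = 0.000159). Bub1b differed by -0.69 (SE 0.19, adjusted p = 0.0129), from -1.58 in reactivated Th1 cells to -0.14 in unstimulated Th1 cells, and Cenpa by -0.42 (SE 0.12, adjusted p = 0.0146). Plk1, Kif11, Top2a and Aurka fell by 0.37, 0.33, 0.27 and 0.20, but Kif11 and Aurka stood at 0.04 and 0.07 in the scanner's log ratios. Cdk1, at -0.24 (interval -0.54 to 0.05), and Mki67, at -0.13 (-0.30 to 0.04), were not called, and Tpx2, a spindle assembly factor, had the smallest estimate, 0.00 (-0.16 to 0.16).

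Among replication genes Mcm3 went from 2.61 with DMSO to 2.05 in unstimulated Th1 cells at 6 hr and from 2.35 to 1.89 in reactivated ones, and from 2.20 to 2.03 and from 2.67 to 2.27 in Th2 cells (-0.40, SE 0.08, adjusted p = 0.00198). Mcm3 was thus lower in 4 of 4 contexts. Rfc4 fell by 0.46 (SE 0.08, adjusted p = 0.00106), Rrm1 by 0.35 and Mcm4 by 0.25. E2f1 rose by 0.47 (SE 0.10, adjusted p = 0.00262, 4 of 4 contexts), with 0.13 under median centring and 0.03 after a spike-in shift. Pcna rose by 0.33 (SE 0.08, adjusted p = 0.00555) but stood at -0.11 after a spike-in shift. Mcm5 at -0.02 (interval -0.21 to 0.17), Rrm2 at 0.16 (-0.09 to 0.40), Ccne1 at 0.05 (-0.14 to 0.23) and Mcm7 at 0.00 (-0.15 to 0.15) were not called.

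The effect of 500 nM JQ1 differed between reactivated and unstimulated cells for 1 of 42 members, where 5.62% of all genes were called lower. Cdc45 stood at 0.14 and 0.38 in unstimulated Th1 and Th2 cells and at -0.54 and -0.37 in reactivated ones (difference of differences -0.72, SE 0.15, adjusted p = 0.0178). Cdc45 lost this call in 4 of 9 other settings and in 5 of the 12 fits that left out 1 array. Between Th1 and Th2 cells the effect of JQ1 differed for no member and 0% of all genes by limma, with 4 members and 907 of all genes at an unadjusted p under 0.05.

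At 50 nM limma called no member, and none had an unadjusted p under 0.05, where 0.34% of all genes were called and 1703 had an unadjusted p under 0.05. Estimates ran from -0.16 for Rfc4 to 0.15 for Pcna among replication genes and from -0.17 for Ccnb1 (interval -0.42 to 0.07) to 0.26 for Aurkb (-0.13 to 0.65) among mitosis genes. The direct comparison of 500 with 50 nM, made within slides, called 3 mitosis genes lower, Ccnb1 by -0.67 (SE 0.11, adjusted p = 0.00143), Bub1b by -0.63 and Plk1 by -0.38. It called 4 replication genes lower, Mcm3 by -0.41, Rfc4 and Rrm1 by -0.30 and Mcm4 by -0.25, and E2f1 higher by 0.36, which turned to -0.13 after a spike-in shift. Of all genes 20.5% were called lower and 10.7% higher. These 8 calls became 4 without the unstimulated Th1 array or without the reactivated Th2 array at 50 nM, 5 without the reactivated Th1 array at 50 nM, and 0 on Th1 arrays alone, added after the data were seen.

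In Th1 cells at 24 hr, 500 nM JQ1 lowered 4 of 21 replication and 3 of 20 mitosis genes, where 7.32% of all genes were called lower. Cenpa went from 2.98 with DMSO to 2.25 in unstimulated and from 2.13 to 0.66 in reactivated cells (-1.10, SE 0.23, adjusted p = 0.0358), Ccnb1 differed by -0.95 and Plk1 by -0.81. Cdc6, Mcm3, Mcm4 and Cdt1 differed by -0.67, -0.61, -0.58 and -0.56, and Uhrf1 by -0.71. Both JQ1 arrays lay below their DMSO partners for each of these genes. The medians were -0.30 for replication and -0.47 for mitosis genes, against -0.04 for all. Without any 1 of the 8 Th1 arrays of this fit no member was called.

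The test of the JQ1 difference at 24 against 6 hr called no member and no other gene, with 599 of all genes at an unadjusted p under 0.05. Among the members Cdc6 (-0.64), Cdt1 (-0.49) and Uhrf1 (-0.60) had an unadjusted p under 0.05. The medians were -0.24 for replication and -0.25 for mitosis genes, against 0.04 for all, and 20 of 20 mitosis genes had a lower estimate at 24 hr. With DMSO alone, Th1 cells at 24 hr differed from those at 6 hr by a replication median of 0.11 unstimulated and -0.10 reactivated, and by a mitosis median of 0.06 and -0.17; these arrays lay on different slides.

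Other genes of the pathway give the surroundings, from lists of 28 further replication genes, 36 further mitosis genes, 12 G1 cyclins, kinases and E2F genes, and 10 brakes of the cycle. Relative to naive cells, 26 of 28 and 33 of 36 of the further replication and mitosis genes were higher and none lower, beside 31.1% of all genes higher, with the chromatin assembly factor Chaf1a at 4.08 and the spindle proteins Nusap1 and Aspm at 5.95 and 5.73. Of the G1 genes 9 were higher and 2 lower, with the repressors E2f8 and E2f7 at 5.13 and 3.66 and the D-type cyclins Ccnd2 and Ccnd1 at -0.80 and -0.34. Of the brakes 6 were higher and 1 lower, with the kinase inhibitors Cdkn1a and Cdkn2c at 4.61 and 4.33 and the antiproliferative gene Btg1 at -1.71.

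After reactivation 23 of 36 further mitosis genes fell and none rose, beside 29% of all genes lower and 21.9% higher, led by the phosphatase Cdc25b (-2.39) and Nusap1 (-1.70). From 13 after a spike-in shift to 31 in Cy3 alone were called lower, and none higher. Of all 12543 genes, 2285 and 3628 were called lower in these 2 settings. Of the further replication genes 14 fell and 2 rose, with DNA ligase Lig1 at -1.13 and Rfc1 at -1.11, and the origin recognition subunits Orc2 and Orc1 at 1.31 and 0.70. Of the G1 genes 5 fell and 5 rose: E2f2 by -3.07 and cyclin D3 (Ccnd3) by -2.69, against Myc, a driver of growth, at 3.30 and Ccnd2 at 2.32. Of the brakes 7 fell, with Cdkn2d at -2.96 and Cdkn1b (p27) at -2.82, and Btg1 rose by 1.26.

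Under 10 µM flavopiridol 25 of 36 further mitosis genes fell and 2 rose, beside 33.5% of all genes lower and 15.4% higher, with Cks2, a Cdk1 binding protein, at -3.42 and cyclin F (Ccnf) at -2.98, against Cks1b at 0.94 and Ube2c at 0.46. Of these 36, 33 were called lower and 0 higher with median centring, 31 and 0 after a spike-in shift, and 16 and 5 in the scanner's log ratios. Of all 12462 genes, 8309, 7149 and 3712 were called lower in that order, and 284, 273 and 2415 higher. Of the further replication genes 10 fell and 4 rose, with the Cdt1 inhibitor Gmnn (geminin) at -1.62 and the polymerase subunit Pole2 at -1.25, and Dut, which clears dUTP, at 0.96 with Gins3 and Rfc2 at 0.74; with median centring Dut, Rfc2 and Cks1b stood at -0.23, -0.36 and -0.12, and Ube2c at -0.77. For the 28 replication genes the calls were 22 lower and 1 higher with median centring, 19 and 0 after a spike-in shift, and 4 and 6 in the scanner's log ratios, where their median was 0.04. Of the G1 genes 5 fell and 2 rose, with Myc at -2.73 and E2f8 at -1.76 and the G1 kinases Cdk6 and Cdk4 at 1.46 and 0.94. After a spike-in shift 6 were called lower and 0 higher, with median centring 6 and 1, and in the scanner's log ratios 5 and 3. Of the brakes 6 fell and none rose, led by Btg1 at -5.32 and Cdkn2d at -3.54. In the scanner's log ratios 4 were called lower and 1 higher.

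Under 500 nM JQ1, 9 of 36 further mitosis genes fell and 2 rose, beside 29.9% of all genes lower and 17.7% higher, with the kinetochore gene Nuf2 at -1.02 and the kinase Melk at -0.79, and Mybl2 (B-Myb) and Pttg1 (securin) at 0.26, which both turned to -0.19 after a spike-in shift. Of these 36, 22 were called lower and 0 higher with median centring, 9 and 0 after a spike-in shift, and 3 and 3 in the scanner's log ratios. Of all 12923 genes, 5823, 3845 and 3351 were called lower in that order, and 736, 137 and 2704 higher. Of the further replication genes 3 fell and 5 rose, with the polymerase genes Pold1 at -0.44 and Pole2 at -0.35, Orc1 at 0.44 and Pola2 at 0.35 (-0.09 after a spike-in shift). For these 28 the calls were 11 lower and 0 higher with median centring, 3 and 0 after a spike-in shift, and 3 and 8 in the scanner's log ratios, beside the same calls over all genes. Of the G1 genes 5 fell and 2 rose, with Cdk6 at -0.79, Myc at -0.62, Ccnd3 at 0.55 and Ccnd1 at 0.22 (-0.22 after a spike-in shift). No G1 gene was called higher with median centring, after a spike-in shift, in Cy3 alone, in the scanner's log ratios or in the deposited values. Of the brakes 3 rose and 2 fell, with Cdkn1b at 1.04 and Btg1 at 0.79, and Cdkn2c at -0.50 and Fzr1, an activator of the anaphase-promoting complex, at -0.48. After a spike-in shift 0 brakes were called higher and 2 lower, with median centring 2 and 3, and in the scanner's log ratios 3 and 1.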

How the data were processed

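The 24 arrays were 2-colour Agilent mouse arrays with T helper cell RNA in Cy3 and naive T cell RNA in Cy5, without dye swaps and with 1 array per condition. The deposited scanner files hold, per the file headers, median spot and background intensities from Agilent Feature Extraction 10.7.1.1 (grid genome mm9) and the software's own log10 ratio of Cy5 over Cy3, background-subtracted and dye-normalized. A further file holds the authors' processed log2 ratios of 34710 probes and served only as an alternative. Median intensities were corrected with normexp (offset 50) and loess in limma 3.58.1 (R 4.3.3), median intensities standing in for the mean intensities first planned, and ratios were turned to log2 of Cy3 over Cy5. The brightest probe of each of 20031 symbols was kept among 55681 probes on 62976 spots, of which 3671 were controls. Genes entered a test if 3 or more arrays of the fit had Cy3 well above background. The fits (lmFit, eBayes, Benjamini-Hochberg over all genes tested, two-sided, adjusted p under 0.05) took the context (cell type, state and time) as a block; reactivation took the pair, Th1 against Th2 the state, and the naive comparison no block. The number of arrays limits the precision, and the naive channel varied between arrays by a median SD of 0.18 on the log2 scale over 276 array pairs.

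The members and all gene lists were chosen with earlier results of these data known. Every member could be named; per comparison and group, the text gives the 3 largest called estimates in each direction, the smallest estimate, members against their group's majority and Mcm5, Pcna, Rrm2, Ccne1, E2f1, Ccnb1, Cdk1, Plk1, Top2a and Mki67. Of other lists it gives the 2 largest called in each direction; 2 genes of the other lists and markers are not reported here. Samples were grouped by their labels. Alternatives were median centring, a spike-in shift, Cy3 alone after Aquantile, the scanner's log ratios, the deposited table, all probes of a gene, no filter and a filter on every array, the slide as a random block, no context or pair block, the higher dose and DMSO arrays alone, and each array left out; Th1 arrays alone were added after seeing the data. The fit was tested on simulated data. Promoters came from RefSeq (GRCm38.p6). Probes without a symbol (29233) were not used here.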

Additional observations from a re-analysis of the deposited data

Results flagged for a closer look

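For 2 members the effect of a drug differed between reactivated and unstimulated cells by an interaction term. The 10 µM flavopiridol effect on Cenpa was higher by 0.89 in reactivated cells (SE 0.24, adjusted p = 0.0477, 95% interval 0.32 to 1.46), and leaving out each array in turn gave 0.68 to 1.09, called in 1 of 12 cases. The 500 nM JQ1 effect on Cdc45 was lower by -0.72 in reactivated cells (SE 0.15, adjusted p = 0.0178, 95% interval -1.05 to -0.38).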

How the results depend on the processing

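No paired analysis was possible because each condition has 1 array and the labels give no replicate numbers; this concerns replicates alone, since the fits were matched by pair (reactivation) or context (drugs). Without that block the called members numbered 21 against 22 for reactivation, 25 against 25 for 10 µM flavopiridol and 9 against 13 for 500 nM JQ1, and with the higher dose and DMSO alone 22 for flavopiridol and 9 for JQ1. Of 1416 values of called members under other settings, 1236 kept direction and call, 169 lost the call and 11 reversed; with 1 array left out, 1045 of 1258 kept both, 213 lost the call and 0 reversed. With median centring E2f1 and Tk1 stood at -0.03 and -0.31 under 10 µM and at -0.01 and -0.30 under 1 µM flavopiridol. In the scanner's log ratios Bub1b and Mcm10 stood at 0.33 and 0.66 under 10 µM, Foxm1 at 0.21 under 1 µM flavopiridol, and Aurka and Kif11 at 0.07 and 0.04 under 500 nM JQ1. After a spike-in shift Pcna stood at -0.11 under 500 nM JQ1 and E2f1 at -0.13 for 500 against 50 nM. The causes were not tested.

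Counts of called members moved as follows. Reactivation (22) had 14 in the scanner's log ratios and 11 after a spike-in shift, Th1 against Th2 (0) had 1 and flavopiridol by cell type (0) had 9 after that shift, and 1 µM flavopiridol (30) had 19 on Th1 arrays alone. For flavopiridol by cell type 701 of all 12462 genes were then called higher. With the slide as a random block, 10 µM flavopiridol had 18 members lower and 2 higher, and 1 µM had 21 and 2. Of all genes 2911 and 3313 were then lower. JQ1 at 500 nM (13) had 29 with median centring, 20 in Cy3 alone, 8 in the scanner's log ratios and 2 on Th1 arrays, and 500 against 50 nM (8) had 14, 13, 4 and 0 in that order. With median centring 5823 and 4272 of all 12923 genes were called lower in these 2 comparisons. Flavopiridol by reactivation (1) had 0 with median centring, a spike-in shift, the scanner's log ratios or the strict filter, 3 in Cy3 alone or the deposited table, 2 with all probes or no filter and 5 with the slide as a block. JQ1 by reactivation (1) had 4 with median centring, 42 after a spike-in shift (with 11900 of 12923 of all genes called lower and their median at -1.18), 0 in Cy3 alone, the scanner's log ratios or the deposited table and 2 with all probes or the strict filter. JQ1 at 24 hr (8) had 14 with median centring, where 1694 of all 12544 genes were called lower, and 0 after a spike-in shift or in the scanner's log ratios.

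With each array left out in turn the counts ran from 13 to 22 for reactivation, 20 to 29 for 10 µM and 22 to 33 for 1 µM flavopiridol, 7 to 13 for 500 nM JQ1, 4 to 9 for 500 against 50 nM, 0 to 4 and 0 to 6 for the flavopiridol and JQ1 effects by reactivation, and 0 to 0 for JQ1 at 24 hr. Against naive cells all 42 stayed. The slide block gave no result for the naive comparison and was not run for the reactivation and 24 hr comparisons. Of all genes called under 10 µM flavopiridol 68.5% were lower, against 96.7% with median centring and 96.3% after a spike-in shift; in the same order the shares were 68.6%, 95.3% and 93.9% for 1 µM, 62.9%, 88.8% and 96.6% for 500 nM JQ1, 65.7%, 92% and 99.6% for 500 against 50 nM, 58.2%, 86.6% and 96.2% for JQ1 at 24 hr, 57%, 63.1% and 40.2% for reactivation, 43.5%, 65.3% and 81.6% for Th1 against Th2, and 41.7%, 74.1% and 20.1% against naive cells.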
